A study of Homo sapiens with 6 samples.

Results

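The 44 genes described here encode the enzymes that make cholesterol and fatty acids, the proteins that regulate them, and proteins that carry or take up sterols and activate fatty acids. They were chosen by name, from their known roles and with earlier results of these data known. Each was looked up by exact symbol in a table of gene expression. A row was found for 43 of the 44, ELOVL5 being not analysed here, out of 27238 rows in all. The cells were QBC-939, a human line that the labels give as cholangiocarcinoma, a cancer of the bile duct. One group received an shRNA against BMI1 (Bmi1 shRNA, 3 libraries) and the other a scrambled shRNA (control, 3 libraries), and RNA was taken 48 h later. All cells were grown in DMEM with fetal bovine serum, a source of lipoprotein cholesterol for both groups. The libraries of a group were described as independent transfections of this 1 line, so the p-values measure the spread between transfections.

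Cells make cholesterol from acetyl-CoA by the mevalonate pathway, which ends in isoprenoid units that are joined to squalene, closed into lanosterol and trimmed to cholesterol. Fatty acids start from the same acetyl-CoA and are made by acetyl-CoA carboxylase and fatty acid synthase, then elongated and desaturated. Both branches are driven by the SREBP transcription factors. SCAP escorts these from the endoplasmic reticulum to the Golgi, where the site-1 and site-2 proteases release them, and the INSIG proteins hold SCAP back when sterols are plentiful.

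Promoter letters for a pair of these genes are shown because they carry the motifs that the pathway is known for. Promoters of 250 bases before to 50 after the start site were available from RefSeq (GRCh38.p14) for 40 of the 44 genes, with 58 start sites; ACAT2, FDFT1, SQLE and FASN were not matched. They were searched on both strands for TCACNCCA, letters of the sterol regulatory element that SREBPs bind, for CCAAT, the box bound by NF-Y, and for GGGCGG, the box bound by SP1. In the 2 stretches below, capitals mark every match on either strand to any of the 3 motifs, none of which overlapped another there, although TCACNCCA and CCAAT can. SREBF2 encodes SREBP2, the factor that acts mainly on sterol genes, and MSMO1 a sterol methyl oxidase.
SREBF2, chr22:41832905-41833058, forward strand: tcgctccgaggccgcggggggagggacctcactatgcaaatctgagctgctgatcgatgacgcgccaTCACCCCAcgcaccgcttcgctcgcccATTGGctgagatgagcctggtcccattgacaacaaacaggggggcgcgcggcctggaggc
MSMO1, chr4:165327469-165327622, forward strand: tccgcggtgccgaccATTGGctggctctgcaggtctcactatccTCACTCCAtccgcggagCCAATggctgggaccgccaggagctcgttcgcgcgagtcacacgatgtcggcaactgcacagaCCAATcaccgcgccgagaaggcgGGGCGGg

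Counted from the start site, the TCACNCCA letters began at position -133 in SREBF2 and -156 in MSMO1, with the next CCAAT match at -106 and -139. They were also found in MVK, which encodes mevalonate kinase, at -195, and on the opposite strand at -241 from an alternative start of ACSL1, which encodes an acyl-CoA synthetase. In these shorter stretches capitals mark those letters alone, on either strand.
MVK, chr12:109573589-109573616, forward strand: ttcgcagttcTCACCCCAgggcgggaca
ACSL1, chr4:184805777-184805803, reverse strand: gtggagcagTGGGGTGActttgctgct
Of all 35116 promoters in the table, 3.95% held TCACNCCA, and of the 58 promoters of these genes 4 did (6.9%). CCAAT stood in 55.2% of these 58 promoters, against 34.6% of all promoters, and GGGCGG in 77.6%, against 45% of all. Among genes with a matched promoter, CCAAT stood in 9 of 12 that rose and 9 of 14 that fell, GGGCGG in 11 of 12 and 12 of 14, and TCACNCCA in 2 of 12 and 1 of 14. A match describes letters in a window, and no factor's binding was measured.

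FPKM counts fragments per kilobase of a transcript relative to all fragments of the library, so levels can be set side by side between genes, but more or less mRNA in a whole cell goes unseen. In bulk RNA, fewer cells with a transcript and less of it per cell cannot be told apart either. Read depth is unknown, so no counting interval could be attached. The sum of FPKM was 352800 to 360371 in the Bmi1 shRNA libraries and 332910 to 341268 in the control libraries. Epithelial and biliary markers were high in both groups, with all 7 detected and a summed level of 1540 to 1773 FPKM in Bmi1 shRNA libraries and 1809 to 1970 FPKM in control libraries. KRT7, a keratin of bile duct cells, was low (2.80 FPKM in Bmi1 shRNA cells and 2.74 FPKM in control cells), as was CDX2 among the intestinal markers (0.0684 FPKM in Bmi1 shRNA cells and 0.0800 FPKM in control cells). Of the 6 intestinal markers with a row 3 were under 1 FPKM, while LGALS4 was at 568 FPKM in Bmi1 shRNA cells and 397 FPKM in control cells, and the 6 summed to 729 to 754 FPKM in Bmi1 shRNA libraries and 572 to 575 FPKM in control libraries. The 4 hepatocyte markers with a row summed to 17.5 to 19.7 FPKM in Bmi1 shRNA libraries and 5.70 to 6.99 FPKM in control libraries, nearly all of it TTR, the other 3 being under 1 FPKM. Among leukocyte markers, LYZ averaged 1532 FPKM in Bmi1 shRNA cells and 1468 FPKM in control cells, and CD14 averaged 0.875 FPKM in Bmi1 shRNA cells and 0.946 FPKM in control cells. The 3 fibroblast markers with a row summed to at most 0.445 FPKM in any library. The 2 adipocyte markers with a row summed to 1.23 to 1.37 FPKM in Bmi1 shRNA libraries and 1.57 to 1.98 FPKM in control libraries. The part of these shifts in the results was not tested.

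BMI1 encodes a subunit of Polycomb repressive complex 1. It measured 1.49, 1.19 and 2.65 FPKM in the Bmi1 shRNA libraries, against 6.65, 5.34 and 6.09 FPKM in the control libraries. The groups did not overlap, and the mean in Bmi1 shRNA cells was 29.5% of the control mean. Its log2 fold change was -1.37 (SE 0.19; limma, adjusted p = 0.00162). By an exact permutation test, two-sided, p was 0.1, which is the lowest value possible with 3 libraries in each group. The exons of BMI1 overlap those of COMMD3-BMI1 on the same strand, and the pseudogene BMI1P1 could share its reads. How reads were split among them is uncertain.

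The sterol and fatty acid genes did not move as a block when BMI1 was lowered. Of the mevalonate enzymes 4 of 7 rose, while 5 of 7 SREBP regulators and 3 of 4 fatty acid synthesis genes fell. Of the 40 genes with a mean of at least 1 FPKM, 13 rose, 16 fell and 11 did not pass the test, which was limma on log2(FPKM + 1) with a call at a Benjamini-Hochberg adjusted p under 0.05 over all 11016 rows tested. The 13 make up 32.5% of the members, beside 28.6% of all tested genes called higher, and the 16 make up 40% of the members, beside 28.5% of all tested genes called lower. The groups stood apart without overlap for 13 members with Bmi1 shRNA above and 15 with it below, beside 32.3% and 33.1% of all tested genes. The median log2 fold change over the 40 was 0.037, beside -0.017 over all tested genes. Read over the list, the median and most of these shares lay near the background, and the share called lower (40%, beside 28.5%) was above it. The list as a whole was not tested, and the description that follows is of the roles and the single genes.

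**Figure D1:**
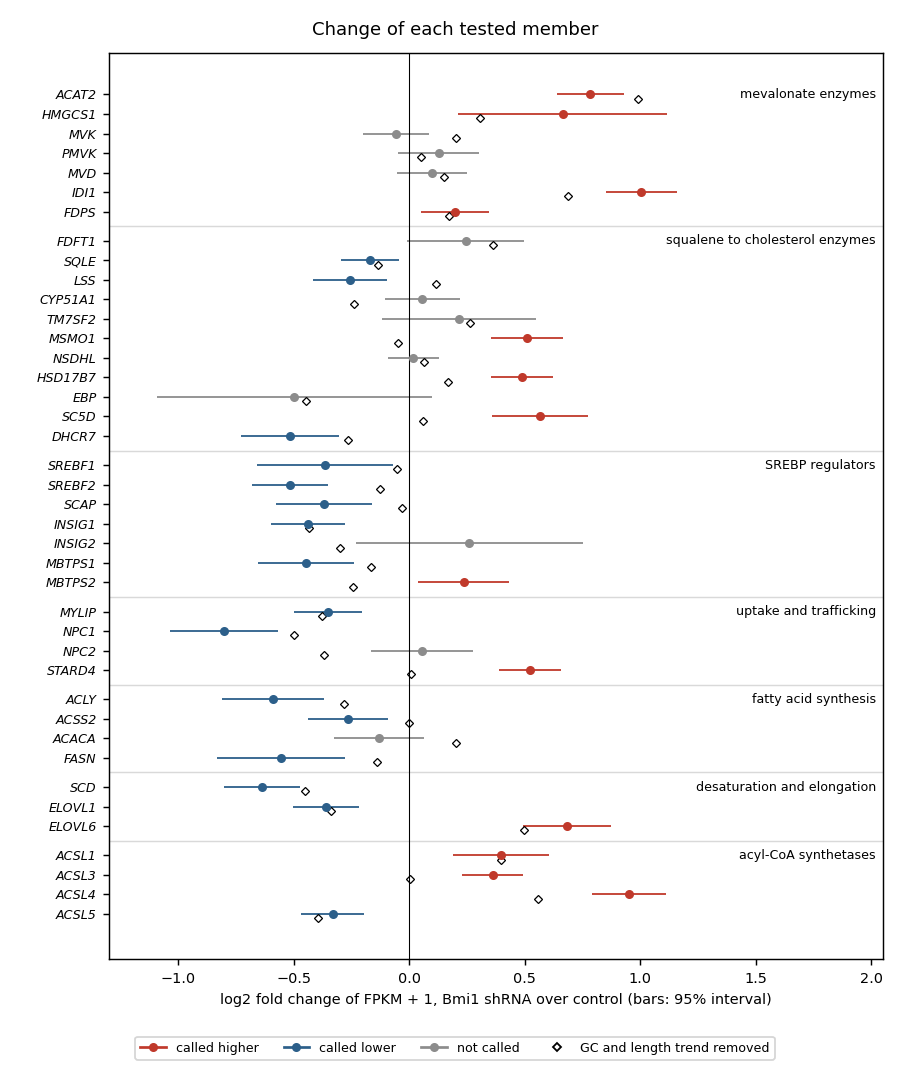
Log2 fold change of FPKM + 1, Bmi1 shRNA over control, for the 40 tested members grouped by role, with 95% confidence intervals from limma and 3 libraries a group. Red points passed an adjusted p under 0.05 as higher, blue ones as lower and grey ones did not pass; open diamonds give the value with the GC and length trend removed. IDI1 (1.004) is farthest to the right and NPC1 (-0.80) farthest to the left.

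Many genes in this comparison changed along with the base composition of their transcripts, and the members shared in this. Across all 10225 tested genes with known GC content, GC content and log2 fold change had a Spearman correlation of -0.47, and across the 40 members it was -0.58. These are descriptions across genes, which are not independent replicates. Members that rose had a median transcript GC content of 40.2% (34.2% to 55.1%), those that fell 53.4% (44.8% to 65.3%), and those not called 50.5%. Each result was therefore also fitted after the trend with GC content and length over all genes was removed, a step that would also take out a real response tied to either. After that removal 11 members were called higher (27.5%, beside 19.1% of all genes) and 12 lower (30%, beside 20.5%). Of the 13 that rose, 7 were still called higher, and of the 16 that fell, 9 were still called lower. GC content and length were those of the longest protein-coding transcript. When they were medians over all transcripts of a gene, 10 members were called higher and 15 lower. Values of this second version are given for members whose calls differ, and counts for the other lists.

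**Figure D2:**
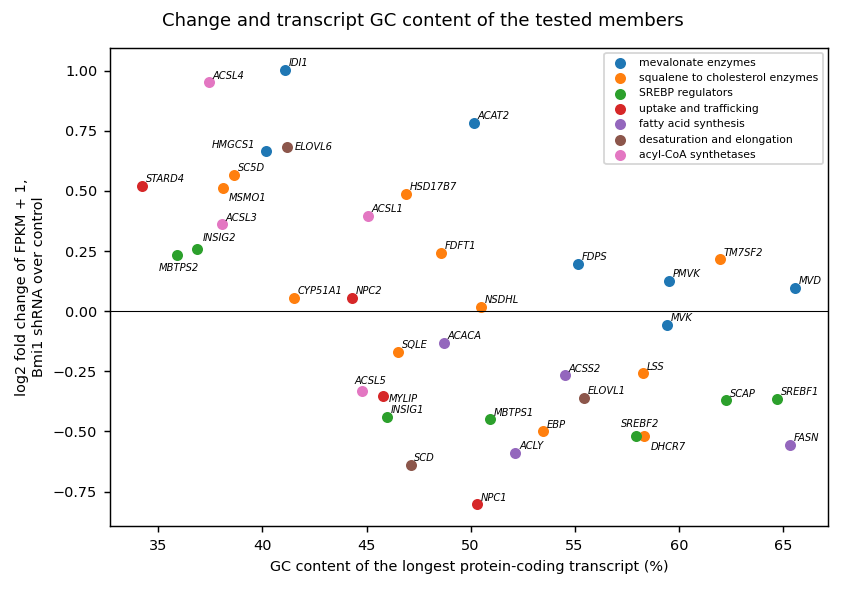
Log2 fold change of FPKM + 1 (Bmi1 shRNA over control) against the GC content in percent of the longest protein-coding transcript, 1 point for each of the 40 tested members, coloured by role. Members of low GC content lie mostly above 0, with STARD4 at the left edge, and ACAT2 at 50.2% GC stands above others of like GC content.

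Several enzymes of the mevalonate pathway were higher after BMI1 knockdown. Of the 7 mevalonate enzymes tested, 4 rose, 0 fell and 3 did not pass the test, with a median log2 fold change of 0.20. The share that rose was 57.1%, beside 28.6% of all tested genes. The 4 were 2 without control replicate 1 or without control replicate 2. With the trend removed, 5 were called higher (71.4%, beside 19.1% of all genes) and 0 lower. MVK and MVD were among the 5 and HMGCS1 was not. With replicate number added to that fit, 2 were called higher. IDI1, which turns isopentenyl diphosphate into its reactive isomer, had 23.3, 25.4 and 22.2 FPKM in the Bmi1 shRNA libraries, against 11.5, 11.2 and 11.1 FPKM in the control libraries. Every Bmi1 shRNA library was clear of every control library. The mean was 2.10 times as high, with a log2 fold change of 1.004 (SE 0.06; limma, adjusted p = 0.000247), the largest rise among the members on the log2(FPKM + 1) scale. After trend removal it was 0.69 (adjusted p = 0.000773).

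ACAT2, the cytosolic acetoacetyl-CoA thiolase that makes the first intermediate, had 23.2, 23.4 and 21.0 FPKM in the Bmi1 shRNA libraries, against 12.6, 12.5 and 12.9 FPKM in the control libraries. The groups were far apart, at a ratio of means of 1.78 and a log2 fold change of 0.78 (SE 0.06; limma, adjusted p = 0.000320). Its change was larger after trend removal, at 0.99 (adjusted p = 0.000530). Its exons overlap TCP1, a chaperonin subunit on the other strand, and it is not stated whether the counting was stranded. TCP1 itself averaged 23.1 ± 1.84 FPKM in Bmi1 shRNA cells and 16.6 ± 0.591 FPKM in control cells (SD, n = 3 each; limma, adjusted p = 0.00263), so the part of either gene in the other's value was not tested.

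HMGCS1, the HMG-CoA synthase, had 12.2, 12.002 and 14.9 FPKM in the Bmi1 shRNA libraries, against 6.71, 6.53 and 10.8 FPKM in the control libraries. Replicate 3 was the highest in both groups, and the groups did not overlap. The ratio of means was 1.63 and the log2 fold change 0.66 (SE 0.19; limma, adjusted p = 0.0227). The call ended without Bmi1 shRNA replicate 3 (adjusted p = 0.0685), without control replicate 1 (0.0667) or without control replicate 2 (0.0697), and after trend removal, where the log2 fold change was 0.30 (limma, adjusted p = 0.263).

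FDPS, which makes farnesyl diphosphate, the branch point to sterols and to protein prenylation, rose by a small amount, to 59.4 ± 3.20 FPKM in Bmi1 shRNA cells, against 51.7 ± 2.08 FPKM in control cells (SD, n = 3 each). The fitted log2 fold change was 0.20 (SE 0.06; limma, adjusted p = 0.0322). It was not called without Bmi1 shRNA replicate 1 or 2 or without control replicate 1 or 2 (limma, adjusted p from 0.0742 to 0.0972), nor under total scaling (0.11; 0.154) or quantile normalization (0.085; 0.221). It was called after trend removal, at 0.17 (limma, adjusted p = 0.0409), and with medians over transcripts, at 0.35 (0.0056). With replicate number added to the first of these fits it was not called (0.1003). The annotation lists 8 pseudogenes named after it that could share its reads. The middle kinases did not pass the test. MVK had 8.84, 9.56 and 9.88 FPKM in the Bmi1 shRNA libraries and 9.74, 10.0 and 9.76 FPKM in the control libraries, a log2 fold change of -0.06 (95% interval -0.20 to 0.09; limma, adjusted p = 0.437), which trend removal turned to 0.20 (adjusted p = 0.0177), or 0.14 with medians over transcripts (0.0575). MVK shares exon sequence with MMAB on the other strand. MMAB averaged 25.5 ± 0.464 FPKM in Bmi1 shRNA cells and 21.8 ± 1.27 FPKM in control cells (SD, n = 3 each; limma, adjusted p = 0.0197). The part of either gene in the other's value was not tested. PMVK, phosphomevalonate kinase, had a log2 fold change of 0.13 (95% interval -0.05 to 0.30; limma, adjusted p = 0.181), and 0.31 with medians over transcripts (0.0237). MVD, the decarboxylase that follows it, had 0.10 (95% interval -0.05 to 0.25; adjusted p = 0.222), and 0.15 after trend removal (adjusted p = 0.0459).

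Of 11 tested enzymes from squalene to cholesterol, 3 rose and 3 fell (27.3% each, near the shares over all tested genes) and 5 did not pass the test, with a median log2 fold change of 0.056. Without Bmi1 shRNA replicate 3 the higher count was 5, and without Bmi1 shRNA replicate 1 the lower count was 1. With the trend removed, 2 were called higher and 2 lower (18.2% each, beside 19.1% and 20.5% of all genes). With medians over transcripts the counts were 2 higher and 3 lower. The 3 that rose were HSD17B7, MSMO1 and SC5D. HSD17B7, the 3-keto sterol reductase, had 4.52, 4.86 and 4.66 FPKM in the Bmi1 shRNA libraries, against 3.00, 3.03 and 3.12 FPKM in the control libraries. The libraries of each group lay close together and the groups were apart. The log2 fold change was 0.49 (SE 0.06; limma, adjusted p = 0.000826), and 0.17 after trend removal (adjusted p = 0.0447). Its pseudogene HSD17B7P2, which could share reads, averaged 0.516 ± 0.0651 FPKM in Bmi1 shRNA cells and 0.592 ± 0.0968 FPKM in control cells (SD, n = 3 each).

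MSMO1, which takes methyl groups off the ring, had 23.1, 21.9 and 20.8 FPKM in the Bmi1 shRNA libraries, against 16.03, 14.6 and 14.7 FPKM in the control libraries. The groups did not overlap, and the log2 fold change was 0.51 (SE 0.06; limma, adjusted p = 0.00118). Its transcript is poor in GC (38.1%), and after trend removal the value was -0.05 (adjusted p = 0.466). SC5D, which sets a double bond in the ring, had 5.98, 4.73 and 5.53 FPKM in the Bmi1 shRNA libraries, against 3.40, 3.40 and 3.14 FPKM in the control libraries. It too was higher in every Bmi1 shRNA library, with a log2 fold change of 0.57 (SE 0.09; limma, adjusted p = 0.00222), and it too was not called after trend removal (0.06; adjusted p = 0.641).

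The 3 that fell were DHCR7, LSS and SQLE. DHCR7, the last reductase before cholesterol, had 33.5, 30.0 and 38.1 FPKM in the Bmi1 shRNA libraries, against 48.0, 49.5 and 48.8 FPKM in the control libraries. Control libraries lay close together, and each Bmi1 shRNA library was well under them. On the log2 scale the change was -0.52 (SE 0.09; limma, adjusted p = 0.00329), and -0.27 after trend removal (adjusted p = 0.0282). LSS, the cyclase that makes lanosterol, had 25.4, 24.8 and 28.7 FPKM in the Bmi1 shRNA libraries, against 32.0, 31.6 and 31.1 FPKM in the control libraries, a log2 fold change of -0.26 (SE 0.07; limma, adjusted p = 0.0164). It was not called without Bmi1 shRNA replicate 1 (adjusted p = 0.0518), and it turned to 0.12 after trend removal (adjusted p = 0.1003). SQLE, the squalene epoxidase, averaged 52.3 ± 1.88 FPKM in Bmi1 shRNA cells and 59.0 ± 1.63 FPKM in control cells (SD, n = 3 each). That was a small fall, at a log2 fold change of -0.17 (SE 0.05; limma, adjusted p = 0.0302), and its call ended when any library but Bmi1 shRNA replicate 3 was left out (adjusted p from 0.0600 to 0.0929) and after trend removal (0.0515), though it was called with medians over transcripts (-0.64; adjusted p = 0.000561).

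Of the 5 without a call, EBP, the sterol isomerase, showed a control library apart from the others. It had 45.3, 47.9 and 44.4 FPKM in the Bmi1 shRNA libraries, against 42.1, 79.1 and 82.9 FPKM in the control libraries. Control replicate 1 was the lowest of all 6 libraries and the other controls were far above every Bmi1 shRNA library. Its log2 fold change was -0.50 (95% interval -1.09 to 0.10; limma, adjusted p = 0.129), and -0.81 without control replicate 1 (adjusted p = 0.00160). FDFT1, squalene synthase, had 46.8, 45.7 and 36.3 FPKM in the Bmi1 shRNA libraries, against 35.5, 38.0 and 34.2 FPKM in the control libraries. Bmi1 shRNA replicate 3 lay among the controls, and the log2 fold change was 0.24 (95% interval -0.01 to 0.50; limma, adjusted p = 0.0894). It was 0.36 without that library (adjusted p = 0.00713) and 0.36 after trend removal (0.0372), or 0.31 with medians over transcripts (0.0546).

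TM7SF2, a sterol reductase, likewise had 13.7, 13.9 and 9.74 FPKM in the Bmi1 shRNA libraries, against 9.66, 10.3 and 11.4 FPKM in the control libraries. Its log2 fold change was 0.22 (limma, adjusted p = 0.223), and 0.37 without Bmi1 shRNA replicate 3 (adjusted p = 0.0141). Its exons overlap those of VPS51 on the same strand, so the split of reads between them is uncertain. CYP51A1, the lanosterol demethylase, averaged 46.1 ± 3.17 FPKM in Bmi1 shRNA cells and 44.3 ± 1.80 FPKM in control cells (SD, n = 3 each), with limma's adjusted p at 0.509. A log2 fold change of 0.06 turned to -0.24 after trend removal (adjusted p = 0.0228), and also changed sign under total scaling (-0.032) and quantile normalization (-0.013). The annotation lists 3 pseudogenes named after CYP51A1 that could share its reads. NSDHL, the decarboxylating sterol dehydrogenase, was nearly level, at 52.1 ± 0.977 FPKM in Bmi1 shRNA cells and 51.4 ± 0.705 FPKM in control cells (SD, n = 3 each), with a log2 fold change of 0.02 (95% interval -0.09 to 0.13; limma, adjusted p = 0.758). That was 0.19 with trend removal by medians over transcripts (adjusted p = 0.0199), -0.071 under total scaling and -0.078 under quantile normalization.

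**Figure D3:**
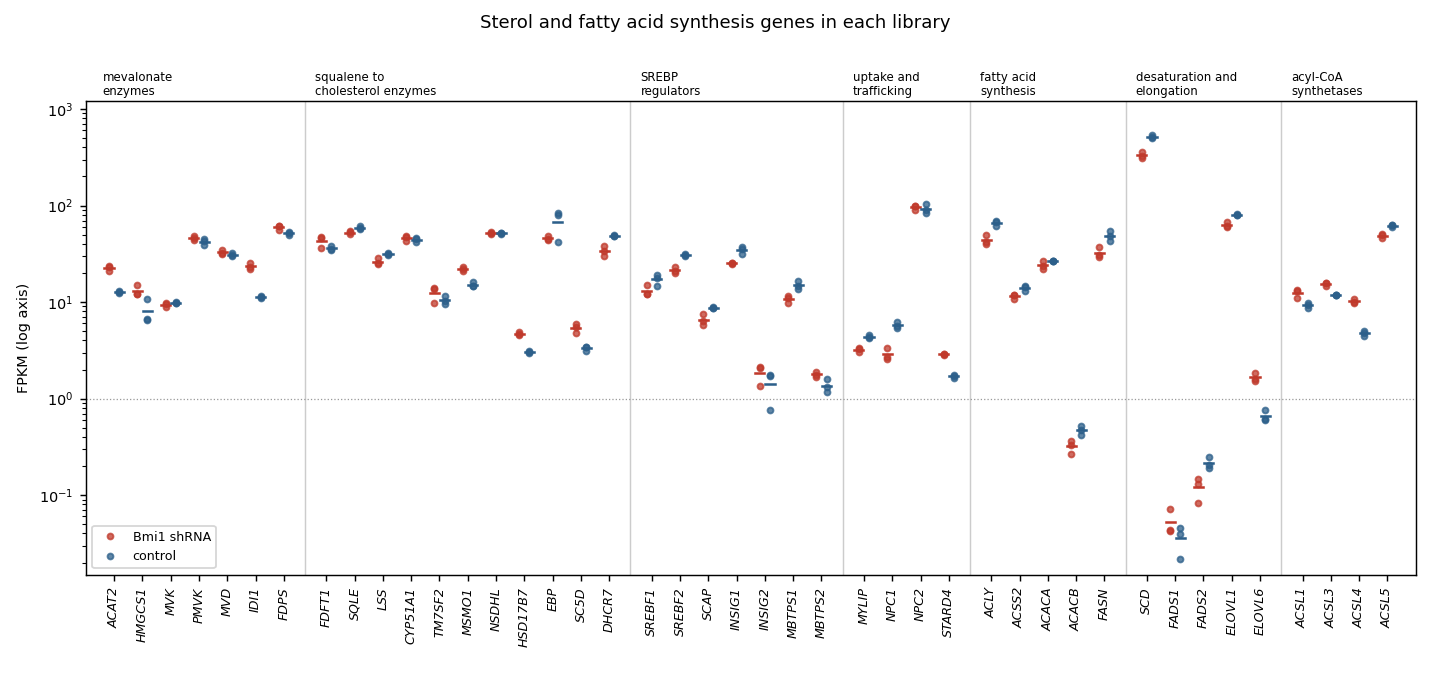
FPKM of the 43 genes with a row in each library, on a log axis, by role; for each gene the Bmi1 shRNA libraries (red points) stand left of the control libraries (blue points), with a dash at each group's mean and a dotted line at the filter of 1 FPKM. IDI1 and ACSL4 stand about 2.10 and 2.13 times as high in Bmi1 shRNA cells, NPC1 at 0.501 of control, and EBP shows control replicate 1 (42.1 FPKM) apart from the other controls.

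Of 7 SREBP regulators, 5 fell, MBTPS2 rose and INSIG2 did not pass the test, with a median log2 fold change of -0.37. These were 71.4% lower and 14.3% higher, beside 28.5% and 28.6% of all tested genes. After trend removal 3 of the 7 were called lower (42.9%, beside 20.5% of all genes) and 0 higher, with a median of -0.16. The 3 were SREBF2, INSIG1 and MBTPS2, of which MBTPS2 had been called higher before. SREBF1, SCAP and MBTPS1 were then no longer called. With medians over transcripts 4 (SREBF2, SCAP, INSIG1 and MBTPS1) were called lower and 0 higher, beside 2549 lower and 2237 higher of 10225 genes. INSIG1, an endoplasmic reticulum anchor that is itself an SREBP target, had 25.01, 25.3 and 25.3 FPKM in the Bmi1 shRNA libraries, against 36.9, 35.1 and 31.8 FPKM in the control libraries. The Bmi1 shRNA libraries were almost identical and all under the lowest control. The log2 fold change was -0.44 (SE 0.07; limma, adjusted p = 0.00216), and it was again -0.44 after trend removal (adjusted p = 0.00289).

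SREBF2 had 21.1, 19.8 and 22.9 FPKM in the Bmi1 shRNA libraries, against 29.7, 31.8 and 30.9 FPKM in the control libraries. The groups were well apart, with a ratio of means of 0.690 and a log2 fold change of -0.52 (SE 0.07; limma, adjusted p = 0.00132). After trend removal it was -0.13 (adjusted p = 0.0409). SREBF1, whose product acts mainly on fatty acid genes, had 12.2, 12.1 and 14.99 FPKM in the Bmi1 shRNA libraries, against 14.6, 19.1 and 17.7 FPKM in the control libraries. Here the groups overlapped, since Bmi1 shRNA replicate 3 lay above control replicate 1. That was a log2 fold change of -0.36 (SE 0.12; limma, adjusted p = 0.0409). The call ended without Bmi1 shRNA replicate 1 or 2 or without control replicate 2 or 3 (adjusted p from 0.107 to 0.119) and after trend removal (-0.05; adjusted p = 0.628).

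SCAP, the escort protein, had 5.83, 6.37 and 7.45 FPKM in the Bmi1 shRNA libraries, against 8.61, 8.74 and 8.81 FPKM in the control libraries. MBTPS1, the site-1 protease, had 9.82, 10.9 and 11.4 FPKM in the Bmi1 shRNA libraries, against 13.8, 16.5 and 14.8 FPKM in the control libraries. Both were lower in every Bmi1 shRNA library, with log2 fold changes of -0.37 for SCAP (SE 0.09; limma, adjusted p = 0.0108) and -0.45 for MBTPS1 (SE 0.09; adjusted p = 0.00525). Neither was called after trend removal, at -0.03 for SCAP (adjusted p = 0.698) and -0.16 for MBTPS1 (0.127). With medians over transcripts both were, at -0.25 for SCAP (limma, adjusted p = 0.0293) and -0.44 for MBTPS1 (0.00770).

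MBTPS2, the site-2 protease, was the regulator that rose, with 1.69, 1.76 and 1.88 FPKM in the Bmi1 shRNA libraries, against 1.59, 1.32 and 1.18 FPKM in the control libraries. Its level was low and the groups nearly touched. On the log2 scale the change was 0.24 (SE 0.08; limma, adjusted p = 0.0459). The sign did not hold, because after trend removal MBTPS2 was called lower, at -0.25 (adjusted p = 0.0299), and with medians over transcripts it was -0.019 (0.8498). It was also not called under total scaling (adjusted p = 0.102) or quantile normalization (0.131). Leaving out any library but control replicate 1 also ended its call (adjusted p from 0.0761 to 0.132), and its exons overlap those of YY2. INSIG2, the second anchor, averaged 1.85 ± 0.444 FPKM in Bmi1 shRNA cells and 1.41 ± 0.559 FPKM in control cells (SD, n = 3 each), with a log2 fold change of 0.26 (95% interval -0.23 to 0.75; limma, adjusted p = 0.312) that turned to -0.30 after trend removal (adjusted p = 0.261).

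Among the genes of sterol uptake and traffic, NPC1 showed the largest fall of all members. Of the 4 tested, 1 rose (25%), 2 fell (50%) and 1 did not pass the test, beside 28.6% and 28.5% of all tested genes. With the trend removed, 0 were called higher and 3 lower (75%, beside 20.5% of all genes). With medians over transcripts the counts were 0 higher and 2 lower. NPC1, the membrane protein that exports cholesterol from lysosomes, had 2.56, 2.68 and 3.38 FPKM in the Bmi1 shRNA libraries, against 5.65, 6.19 and 5.38 FPKM in the control libraries. The Bmi1 shRNA mean was 0.501 of the control mean and the groups were far apart. The log2 fold change was -0.80 (SE 0.10; limma, adjusted p = 0.000998), and -0.50 after trend removal (adjusted p = 0.00408). Its exons overlap RMC1 on the other strand, which averaged 4.82 ± 0.264 FPKM in Bmi1 shRNA cells and 6.14 ± 0.200 FPKM in control cells (SD, n = 3 each), a log2 fold change of -0.30 (limma, adjusted p = 0.00681).

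NPC2, the soluble partner that hands cholesterol to NPC1 in the lysosome, was the second most abundant member in both groups. It had 98.8, 99.97 and 89.9 FPKM in the Bmi1 shRNA libraries, against 104.6, 83.9 and 89.9 FPKM in the control libraries. The groups overlapped widely, at a log2 fold change of 0.06 (95% interval -0.16 to 0.28; limma, adjusted p = 0.624). It turned to -0.37 and was called after trend removal (adjusted p = 0.00882) but was 0.15 with medians over transcripts (0.231). Its sign also turned without control replicate 2 (-0.013), under total scaling (-0.032) and under quantile normalization (-0.075). The exons of NPC2 overlap ISCA2 on the other strand. ISCA2 averaged 7.83 ± 0.610 FPKM in Bmi1 shRNA cells and 6.19 ± 0.357 FPKM in control cells (SD, n = 3 each; limma, adjusted p = 0.0150).

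MYLIP, the ubiquitin ligase that marks lipoprotein receptors for breakdown and is a target of the sterol-sensing LXR receptors, had 3.36, 3.02 and 3.25 FPKM in the Bmi1 shRNA libraries, against 4.23, 4.55 and 4.36 FPKM in the control libraries. It was lower in every Bmi1 shRNA library, with a log2 fold change of -0.35 (SE 0.06; limma, adjusted p = 0.00344) and -0.38 after trend removal (adjusted p = 0.00340). STARD4, a cytosolic sterol carrier, had 2.92, 2.84 and 2.87 FPKM in the Bmi1 shRNA libraries, against 1.64, 1.71 and 1.75 FPKM in the control libraries. The spread within each group was small beside the gap between them. The fitted log2 fold change was 0.52 (SE 0.06; limma, adjusted p = 0.000662). STARD4 has the lowest GC content of the tested members (34.2%), and after trend removal the value was 0.0073 (adjusted p = 0.921).

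Of the 5 genes that make fatty acids from citrate and acetate, ACLY, ACSS2 and FASN fell, ACACA did not pass the test and ACACB was not tested. The share of the 4 tested that fell was 75%, beside 28.5% of all tested genes. The median log2 fold change of the 4 was -0.41, which trend removal brought to -0.071. It left 1 called higher and 1 lower (25% each, beside 19.1% and 20.5% of all genes). With the trend taken from medians over transcripts, ACLY, ACSS2 and FASN were all called lower and 0 were called higher. ACLY, which cleaves citrate to acetyl-CoA, had 41.7, 40.3 and 49.5 FPKM in the Bmi1 shRNA libraries, against 61.8, 69.9 and 67.0 FPKM in the control libraries. No Bmi1 shRNA library came near a control library, and the ratio of means was 0.661. That was a log2 fold change of -0.59 (SE 0.09; limma, adjusted p = 0.00241), and -0.28 after trend removal (adjusted p = 0.0165).

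FASN, the fatty acid synthase, had 31.0, 29.6 and 37.1 FPKM in the Bmi1 shRNA libraries, against 42.8, 54.0 and 48.3 FPKM in the control libraries. The groups did not overlap, and the log2 fold change was -0.56 (SE 0.11; limma, adjusted p = 0.00680). FASN is rich in GC (65.3%), and it was not called after trend removal (-0.14; adjusted p = 0.0982), though it was with medians over transcripts (-0.62; 0.00338). ACSS2, which makes acetyl-CoA from acetate, had 11.8, 10.7 and 11.96 FPKM in the Bmi1 shRNA libraries, against 14.6, 12.96 and 14.5 FPKM in the control libraries. Its log2 fold change was -0.27 (SE 0.07; limma, adjusted p = 0.0193). The call ended without Bmi1 shRNA replicate 2 (adjusted p = 0.0556), without control replicate 1 (0.0602) or without control replicate 3 (0.0658), and trend removal brought the value to 0.00028 (0.997), or -0.21 with medians over transcripts (0.0405).

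ACACA, the acetyl-CoA carboxylase of the cytosol, had 23.9, 21.8 and 26.9 FPKM in the Bmi1 shRNA libraries, against 26.3, 26.6 and 26.6 FPKM in the control libraries. Control libraries were almost identical, and Bmi1 shRNA replicate 3 lay just above them. The log2 fold change was -0.13 (95% interval -0.32 to 0.06; limma, adjusted p = 0.207), -0.21 without that library (adjusted p = 0.0340) and 0.20 after trend removal (0.0192), or -0.14 with medians over transcripts (0.173). ACACB, the carboxylase of the mitochondrial surface, was under the filter, with 0.366, 0.269 and 0.333 FPKM in the Bmi1 shRNA libraries and 0.478, 0.514 and 0.417 FPKM in the control libraries. With no filter its adjusted p was 0.0890 (limma).

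SCD, the stearoyl-CoA desaturase that makes oleate, was by level the leading member. It had 325, 308 and 359 FPKM in the Bmi1 shRNA libraries, against 496, 536 and 512 FPKM in the control libraries. Every Bmi1 shRNA library was far below every control library, at a ratio of means of 0.643. Its log2 fold change was -0.64 (SE 0.07; limma, adjusted p = 0.000667), and -0.45 after trend removal (adjusted p = 0.00106). SCD alone held 24.6%, 23.6% and 26.2% of the summed FPKM of the members in the Bmi1 shRNA libraries, and 32.0%, 33.0% and 32.0% of it in the control libraries. Its pseudogene SCDP1, which could share reads, averaged 0.354 ± 0.0506 FPKM in Bmi1 shRNA cells and 0.628 ± 0.0647 FPKM in control cells (SD, n = 3 each).

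The elongases moved in opposite directions. ELOVL1, which lengthens very long saturated chains, had 67.0, 59.4 and 61.1 FPKM in the Bmi1 shRNA libraries, against 80.4, 79.5 and 81.3 FPKM in the control libraries. It was lower in every Bmi1 shRNA library, at a log2 fold change of -0.36 (SE 0.06; limma, adjusted p = 0.00292), and -0.34 after trend removal (adjusted p = 0.00462). ELOVL6, which lengthens palmitate to stearate, had 1.52, 1.60 and 1.86 FPKM in the Bmi1 shRNA libraries, against 0.754, 0.596 and 0.611 FPKM in the control libraries. The ratio of means was 2.54, the largest among tested members, at low levels, and the log2 fold change was 0.68 (SE 0.08; limma, adjusted p = 0.000860; 0.50 after trend removal, adjusted p = 0.00224). ELOVL6 passed the filter through its level in Bmi1 shRNA cells, its control mean being under 1 FPKM, so that its place in the counts follows partly from the filter; with no filter its adjusted p was 0.0039.

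The desaturases of polyunsaturated fatty acids had very low values in both groups. The exons of FADS1 and FADS2 overlap each other on opposite strands, and those of FADS2 overlap FEN1 on the same strand. How reads were split among these genes is uncertain. FADS1 averaged 0.0527 FPKM in Bmi1 shRNA cells and 0.0355 FPKM in control cells. FADS2 had 0.0828, 0.148 and 0.131 FPKM in the Bmi1 shRNA libraries, against 0.206, 0.191 and 0.247 FPKM in the control libraries. Neither was tested under the filter; with none, the limma adjusted p was 0.462 for FADS1 and 0.0588 for FADS2.

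The acyl-CoA synthetases, which activate long-chain fatty acids for every later use, were all called, 3 of the 4 higher and 1 lower. These were 75% and 25%, beside 28.6% and 28.5% of all tested genes. With the trend removed, 2 were called higher and 1 lower (50% and 25%, beside 19.1% and 20.5% of all genes). ACSL4, which prefers arachidonate and other polyunsaturated chains, had 9.81, 9.95 and 10.8 FPKM in the Bmi1 shRNA libraries, against 5.05, 4.81 and 4.47 FPKM in the control libraries. The groups lay far apart, at a ratio of means of 2.13. The fitted log2 fold change was 0.95 (SE 0.07; limma, adjusted p = 0.000280), and 0.56 after trend removal (adjusted p = 0.000936). ACSL1 had 12.995, 11.1 and 13.4 FPKM in the Bmi1 shRNA libraries, against 9.39, 9.70 and 8.58 FPKM in the control libraries. It was higher in every Bmi1 shRNA library, at a log2 fold change of 0.40 both before (SE 0.09; limma, adjusted p = 0.00856) and after trend removal (adjusted p = 0.00824).

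ACSL3, a synthetase of the endoplasmic reticulum and of lipid droplets, had 14.7, 15.8 and 15.9 FPKM in the Bmi1 shRNA libraries, against 11.7, 11.9 and 11.8 FPKM in the control libraries. The groups did not overlap, with a log2 fold change of 0.36 (SE 0.05; limma, adjusted p = 0.00222), but it was 0.00095 after trend removal (adjusted p = 0.990). ACSL5, the most abundant of the 4 and a synthetase known from the intestine, had 46.4, 49.7 and 50.7 FPKM in the Bmi1 shRNA libraries, against 63.6, 62.5 and 59.4 FPKM in the control libraries. It was lower in every Bmi1 shRNA library, at a log2 fold change of -0.33 (SE 0.06; limma, adjusted p = 0.00333), and -0.39 after trend removal (adjusted p = 0.00192). Its exons overlap ZDHHC6 on the other strand, which averaged 10.1 ± 0.807 FPKM in Bmi1 shRNA cells and 12.03 ± 0.388 FPKM in control cells (SD, n = 3 each; limma, adjusted p = 0.0281).

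Levels were also summed by role. The mevalonate enzymes summed to 207 ± 4.87 FPKM in Bmi1 shRNA cells and 167 ± 5.11 FPKM in control cells, and this was the role whose sum was higher in every Bmi1 shRNA library than in any control library. The SREBP regulators summed to 80.4 ± 4.21 FPKM in Bmi1 shRNA cells and 109 ± 3.68 FPKM in control cells, with SD over 3 libraries each. Fatty acid synthesis summed to 112 ± 11.98 FPKM in Bmi1 shRNA cells and 156 ± 8.99 FPKM in control cells. Desaturation and elongation, most of it SCD, summed to 395 ± 26.4 FPKM in Bmi1 shRNA cells and 596 ± 19.4 FPKM in control cells. Those 3 sums were lower in every Bmi1 shRNA library. Squalene to cholesterol enzymes summed to 344 ± 2.69 FPKM in Bmi1 shRNA cells and 371 ± 22.02 FPKM in control cells, with overlap, since control replicate 1 (345 FPKM) lay under Bmi1 shRNA replicate 2 (347 FPKM). Uptake and traffic genes summed to 105 ± 5.02 FPKM in Bmi1 shRNA cells and 105 ± 10.3 FPKM in control cells, and acyl-CoA synthetases to 87.0 ± 3.44 FPKM in Bmi1 shRNA cells and 87.6 ± 2.97 FPKM in control cells, with overlap in both. All members together summed to 1331 ± 34.4 FPKM in Bmi1 shRNA cells and 1590 ± 38.1 FPKM in control cells; without SCD the sums were 1001 ± 9.55 FPKM in Bmi1 shRNA cells and 1076 ± 19.5 FPKM in control cells. A sum is set by its most abundant genes and was not tested.

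**Figure D4:**
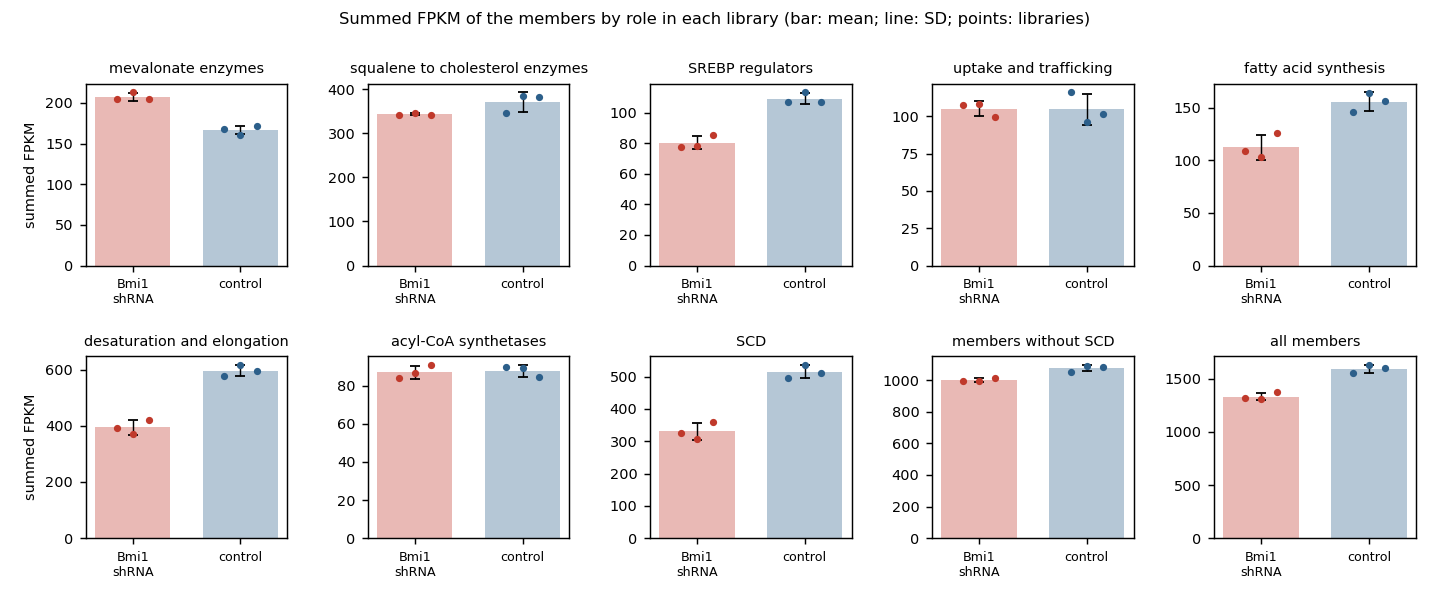
Summed FPKM of the members of each role, of SCD, of the members without SCD and of all members, with Bmi1 shRNA left of control; bars are means of 3 libraries, lines the SD and points the libraries. Mevalonate enzymes are higher in Bmi1 shRNA cells (mean 207 FPKM, against 167 FPKM in control cells), and desaturation and elongation, led by SCD, is lower (395 FPKM, against 596 FPKM in control cells).

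Across the settings tried, 12 members kept their call in every alternative that tested them. ACAT2, IDI1, ELOVL6, ACSL1 and ACSL4 rose in all of these, and INSIG1, MYLIP, NPC1, ACLY, SCD, ELOVL1 and ACSL5 fell in all of these. Both sets mix sterol and fatty acid genes. The settings refit the same 6 libraries, and the share of all tested genes that kept their call is not given here. ELOVL6 passed the filter only through its level in Bmi1 shRNA cells, and was tested in 17 of the 18 alternatives.

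Other lipid genes were grouped by textbook role, with earlier results of these data known. Their counts stand beside 28.6% of all tested genes called higher and 28.5% called lower, or 19.1% and 20.5% after trend removal. With medians over transcripts 2237 of 10225 genes were called higher and 2549 lower. For single genes of these lists, trend removal is by the longest transcript. In the isoprenoid branch, which uses mevalonate products for prenyl groups, ubiquinone and dolichol, 3 of 12 tested genes rose (25%) and 4 fell (33.3%), with a median log2 fold change of 0.087. After trend removal 1 was called higher and 1 lower, or 2 higher and 3 lower with medians over transcripts. The 3 that rose include PGGT1B, which passed the filter only through its level in Bmi1 shRNA cells. The 4 that fell were 2 without Bmi1 shRNA replicate 1 or 2. RABGGTB, a subunit of the Rab prenyl transferase, averaged 5.43 ± 0.473 FPKM in Bmi1 shRNA cells and 2.73 ± 0.146 FPKM in control cells (SD, n = 3 each; limma, adjusted p = 0.000515), but its log2 fold change of 0.78 was 0.02 after trend removal (adjusted p = 0.840). GGPS1, which makes geranylgeranyl diphosphate, averaged 5.41 ± 0.590 FPKM in Bmi1 shRNA cells and 2.50 ± 0.357 FPKM in control cells (limma, adjusted p = 0.000961), and kept a log2 fold change of 0.49 of 0.87 after trend removal (0.0158). PDSS2, of ubiquinone synthesis, was not called (log2 fold change 0.04; limma, adjusted p = 0.762). Among 12 tested genes of sterol sensing, esterification and efflux, 3 rose (25%) and 4 fell (33.3%), with a median of -0.19. After trend removal 1 was called higher and 1 lower, or 1 higher and 3 lower with medians over transcripts. SOAT1, which esterifies cholesterol for storage, averaged 6.28 ± 0.316 FPKM in Bmi1 shRNA cells and 3.00 ± 0.0640 FPKM in control cells (log2 fold change 0.86; limma, adjusted p = 0.000267; 0.62 after trend removal).

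OSBP, an oxysterol-binding carrier between membranes, fell to 15.3 ± 1.19 FPKM in Bmi1 shRNA cells, against 20.1 ± 0.719 FPKM in control cells (limma, adjusted p = 0.00472), and was not called after trend removal (0.188). NR1H3, which encodes LXR alpha, was not called (log2 fold change -0.07; limma, adjusted p = 0.360). Of 9 tested genes of fatty acid precursors and the elongation cycle, 0 rose and 1 fell (11.1%), with a median log2 fold change of 0.13. After trend removal 1 was called higher and 3 lower, or 1 higher and 2 lower with medians over transcripts. Without Bmi1 shRNA replicate 3 or control replicate 2 the lower count was 2, and without control replicate 2 the higher count was 1. The gene that fell was MID1IP1, an activator of acetyl-CoA carboxylase, with 15.7 ± 1.64 FPKM in Bmi1 shRNA cells and 20.1 ± 0.527 FPKM in control cells (SD, n = 3 each; limma, adjusted p = 0.0107), not called after trend removal (0.828). MLYCD, malonyl-CoA decarboxylase, had a log2 fold change of -0.03 (limma, adjusted p = 0.727) that turned to 0.44 after trend removal (0.00780).

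Of 11 tested glycerolipid genes 1 rose (9.09%) and 5 fell (45.5%), with a median log2 fold change of -0.15. After trend removal 0 were called higher and 2 lower (18.2%), with a median of 0.0069, or 1 higher and 4 lower with medians over transcripts. Without Bmi1 shRNA replicate 3 the lower count was 8, and without Bmi1 shRNA replicate 2 the higher count was 0. AGPAT3, an acyltransferase, averaged 1.48 ± 0.151 FPKM in Bmi1 shRNA cells and 2.61 ± 0.162 FPKM in control cells (limma, adjusted p = 0.00140). GPAT4, which starts glycerolipid synthesis, averaged 3.34 ± 0.127 FPKM in Bmi1 shRNA cells and 4.82 ± 0.229 FPKM in control cells (limma, adjusted p = 0.00174). Neither was called after trend removal (limma, adjusted p = 0.0790 for AGPAT3 and 0.615 for GPAT4), though each was called in 15 of 17 alternatives. DGAT2, which completes triglyceride, was not called (log2 fold change -0.07; limma, adjusted p = 0.556; 0.15 after trend removal). In fatty acid oxidation 4 of 15 tested genes rose and 4 fell (26.7% each, median 0.12). After trend removal 4 were called higher and 0 lower, or 4 higher and 1 lower with medians over transcripts. The lower count was 1 without Bmi1 shRNA replicate 1, and 2 without Bmi1 shRNA replicate 2 or control replicate 2 or 3. ACADM, the medium-chain dehydrogenase, had 4.54, 5.66 and 5.29 FPKM in the Bmi1 shRNA libraries, against 2.24, 1.84 and 1.77 FPKM in the control libraries. It rose clear of the controls by a log2 fold change of 1.06 (SE 0.10; limma, adjusted p = 0.000467; 0.69 after trend removal, adjusted p = 0.00208). ECI2, an isomerase for unsaturated chains, averaged 1.73 ± 0.161 FPKM in Bmi1 shRNA cells and 0.752 ± 0.109 FPKM in control cells (limma, adjusted p = 0.00112; 0.00462 after trend removal). Its control mean was under 1 FPKM, so that it passed the filter only through Bmi1 shRNA cells and its place among the 4 follows partly from the filter. HADH, the short-chain dehydrogenase, was not called (log2 fold change 0.03; adjusted p = 0.745).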

How the data were processed

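Poly(A) RNA libraries of QBC-939 cells were compared, 3 with Bmi1 shRNA and 3 with scrambled shRNA, after 48 h, per the labels. The extraction text there also names adipose material, so its library details are not settled for these samples. The values are FPKM per gene, as deposited by the authors. Bowtie 0.12.2, HISAT2 2.0 and StringTie 1.3.0 are named with no role, per the submitters' processing notes, which name the mouse build mm8 although the organism is human, so the build is not settled. The columns named Sc and Sh with a number were taken as scrambled and Bmi1 shRNA replicates, and 0 columns were left unused. 3646 of 27238 rows share a name; no member does. Whole reads could not be recovered (the commonest ratio between libraries held for at most 3.71% of low rows), so count tests were not run.

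limma 3.58.1 in R 4.3.3 was fitted to log2(FPKM + 1) over 11016 rows (mean across libraries of 1 FPKM or more), with group as the sole term and a trend in the variance. Fold changes are on that scale, which understates low genes, unless given as ratios of mean FPKM. GC content and length came from the longest protein-coding transcript in GENCODE 29 (GRCh38), known for 92.8% of tested rows and 40 of 40 members. The trend was removed by regressing each library's deviations on natural splines with 5 degrees of freedom. Replicate numbers did not pair the libraries: same-numbered libraries correlated from -0.079 to 0.0037 in their deviations. Alternatives covered the pseudocount, filter, scaling, variance prior, library weights, block and each library left out. The steps were tested on simulated data. The members and lists were chosen with earlier results of these data known. All members were named, and from each other list the 2 called genes of smallest p and the 1 not called of largest p. Promoter letters are from RefSeq (GRCh38.p14); the SREBF2 stretch also lies in an exon of the antisense gene SREBF2-AS1.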

Additional observations from a re-analysis of the deposited data

How the results depend on the processing

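The count of tested genes called was 6295; counted anew, it was 3478 with a mean of at least 5 FPKM, 4055 with the GC and length trend removed and 3140 with that and the replicate block. Members called higher numbered 13, but 8 with a mean of at least 5 FPKM, where fewer were tested, and 7 with trend removal and block; members called lower numbered 16, but 8 with both. Their median log2 fold change (0.037) changed sign with a mean of at least 5 FPKM (-0.094), total scaling (-0.052), quantile normalization (-0.048) and trend removal (-0.016, the same with the block, and -0.091 with medians over transcripts).

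Single genes changed sign as follows, with trend removal, with medians over transcripts and with the block added: MVK (0.20, 0.14, 0.20), LSS (0.12, 0.035, 0.12), CYP51A1 (-0.24, -0.39, -0.24), MSMO1 (-0.050, -0.040, -0.050), INSIG2 (-0.30, -0.32, -0.30) and MBTPS2 (-0.25, -0.019, -0.25). NPC2 (-0.37), ACSS2 (0.00028) and ACACA (0.20) did so with trend removal, with and without the block, and ACSL3 (-0.14) with medians. Scaling turned CYP51A1 (total -0.032, quantile -0.013), NSDHL (-0.071, -0.078) and NPC2 (-0.032, -0.075), and NPC2 was -0.013 without control replicate 2.

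Replicate numbers did not pair the libraries (0 of 3 matched best by number). The replicate block alone gave 2870 genes higher and 2788 lower, and it ended the calls of FDPS (adjusted p = 0.0820), SQLE (0.0742) and MBTPS2 (0.0980). Scaling ended those of FDPS (total, adjusted p = 0.154; quantile, 0.221), MBTPS2 (0.102 and 0.131) and SQLE (upper quartile, 0.0761). With no filter, HMGCS1 (0.0641), FDPS (0.0550), SREBF1 (0.0964) and MBTPS2 (0.108) were not called. Counts by role or list moved by over 1.5 times in 79 of 432 combinations with a setting, 38 of them with trend removal; the cause was not tested. Depth is unknown, and genes under 1 FPKM carry the least weight.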
